A study of Mus musculus with 6 samples.

Results

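The linker histone H1 genes were taken as the 9 genes Hist1h1a, Hist1h1b, Hist1h1c, Hist1h1d, Hist1h1e, Hist1h1t, H1f0, H1fx and H1foo, found by the gene name printed for each probe in the scanner tables, out of 30222 gene names on the array. Each gene had 1 probe of 60 bases. Of these 9 probes, 8 were well above background on all 6 arrays and could be tested, and the Hist1h1d probe was not well above background on any array. RNA came from mouse embryonic stem (ES) cells, pluripotent cells derived from the early embryo, of 2 genotypes with 3 arrays each: wild type, and a knockout of Zscan5b, which encodes a SCAN domain zinc finger protein. Cells of both genotypes grew in leukemia inhibitory factor (LIF) at 1000 IU/ml on mouse embryonic fibroblasts that 10 ug/ml mitomycin C had stopped from dividing. The labels give neither the position of the deletion nor a clone of origin, so it is not known whether the knockout arrays stand for more than 1 line, and p-values measure the spread between these samples. In bulk RNA of this kind, fewer cells of a type and less RNA per cell cannot be told apart.

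Linker histones bind where DNA enters and leaves the nucleosome and help to fold chromatin. Most somatic members of the family, including those encoded by Hist1h1a to Hist1h1e, are made in S phase from genes without introns that lie in the large histone cluster, and their mRNAs end in a stem-loop in place of a poly(A) tail. H1f0, best known from differentiated cells that have stopped dividing, and H1fx lie outside the cluster and give polyadenylated mRNA that is less tied to replication, while Hist1h1t is the variant of spermatocytes and H1foo that of oocytes. The RNA was amplified for labelling with an oligo(dT)-primed kit, so for the stem-loop mRNAs the signal depends on how far such transcripts were primed, which the files do not record. Current RefSeq symbols of the cluster genes are H1f1 (Hist1h1a), H1f5 (Hist1h1b), H1f2 (Hist1h1c), H1f3 (Hist1h1d), H1f4 (Hist1h1e) and H1f6 (Hist1h1t), and H1fx and H1foo are now H1f10 and H1f8.

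The results on the brightest signals of the family, and on the single gene whose genotypes did not overlap after scaling, rest on the 4 probes below. They are printed 5′ to 3′ as the scanner tables give them.
Hist1h1a probe: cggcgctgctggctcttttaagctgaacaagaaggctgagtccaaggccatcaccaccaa
Hist1h1b probe: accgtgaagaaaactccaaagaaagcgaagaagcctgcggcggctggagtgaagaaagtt
Hist1h1e probe: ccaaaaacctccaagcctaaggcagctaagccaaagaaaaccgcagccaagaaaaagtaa
H1fx probe: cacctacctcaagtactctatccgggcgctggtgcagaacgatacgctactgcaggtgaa
The Hist1h1b and Hist1h1e probes read through without an internal stop codon in a frame of which 70% and 80% of codons stand for lysine, alanine or proline, the residues that fill the tails of H1 proteins. The longest run that any probe of the family shared with another H1 probe was 9 bases, between these same 2. Against all other gene probes of the array, 8 of the 9 shared no run of 15 bases or more, and the Hist1h1a probe shared 16 bases with the Srcin1 probe. The H1 genes are paralogs with related coding sequence, and how far transcripts of other members bound a coding probe was not tested.

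The 6 cluster genes also share a promoter layout, shown here because their values are read side by side below. RefSeq windows (assembly GRCm38.p6) from 250 bases before to 50 after the start of transcription were found for all 9 members. The stretches below end at the last base before the start, and capitals mark the motifs. The H1 box was searched as AAACACA. The longer form of the CCAAT box was searched as ACCAATCA. The looser form of the TATA box was searched as TATANA, where N is any base.
Hist1h1a promoter (chr13:23763558-23763667, + strand): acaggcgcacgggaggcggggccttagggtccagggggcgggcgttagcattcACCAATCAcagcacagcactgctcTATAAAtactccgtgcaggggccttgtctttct
Hist1h1b promoter (chr13:21780626-21780747, - strand): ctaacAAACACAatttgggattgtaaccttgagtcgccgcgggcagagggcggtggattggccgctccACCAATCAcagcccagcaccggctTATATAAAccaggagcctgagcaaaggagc
Hist1h1c promoter (chr13:23738690-23738806, + strand): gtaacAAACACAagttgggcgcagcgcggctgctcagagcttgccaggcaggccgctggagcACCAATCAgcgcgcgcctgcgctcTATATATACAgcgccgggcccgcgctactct
Hist1h1d promoter (chr13:23554905-23555031, + strand): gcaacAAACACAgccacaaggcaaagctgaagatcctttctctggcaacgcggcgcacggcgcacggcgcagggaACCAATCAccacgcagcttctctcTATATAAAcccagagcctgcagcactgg
Hist1h1e promoter (chr13:23622559-23622678, - strand): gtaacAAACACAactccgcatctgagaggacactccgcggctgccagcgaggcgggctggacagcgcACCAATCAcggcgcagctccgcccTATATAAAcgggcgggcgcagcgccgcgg
Hist1h1t promoter (chr13:23695692-23695810, + strand): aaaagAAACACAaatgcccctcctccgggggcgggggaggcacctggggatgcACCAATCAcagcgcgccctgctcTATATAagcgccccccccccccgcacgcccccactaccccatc

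The H1 box was present in 5 of 9 members (Hist1h1b, Hist1h1c, Hist1h1d, Hist1h1e and Hist1h1t), against 7.18% of the 32851 windows in the table when both strands were searched. Its first base lay between -122 (Hist1h1d) and -112 (Hist1h1c). The window of Hist1h1a did not hold these letters. ACCAATCA, which contains CCAAT, was present in all 6 cluster genes and in 2.13% of all windows, and TATANA, which contains TATAAA, in the same 6 genes and in 24.7%. CCAAT alone was found in 7 members (37.4% of windows), on the reverse strand in H1foo, and TATAAA in 4 members (13.6%). The step from ACCAATCA to the first TATANA was 24 bases in 5 genes and 23 bases in Hist1h1t, whereas the step from the H1 box to ACCAATCA ran from 48 bases in Hist1h1t to 70 in Hist1h1d. On the forward strand, the 3 elements stood in this order in 5 windows of the table, and those were the 5 members with an H1 box. The longer CCAAT and the looser TATA forms were written after these promoters had been read, so their counts describe the windows and test nothing. The windows of H1f0 and H1fx held none of the motifs on either strand and were rich in G and C (75% and 77.7% of bases, against 45.7% to 54.7% in the cluster genes).

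**Figure D1:**
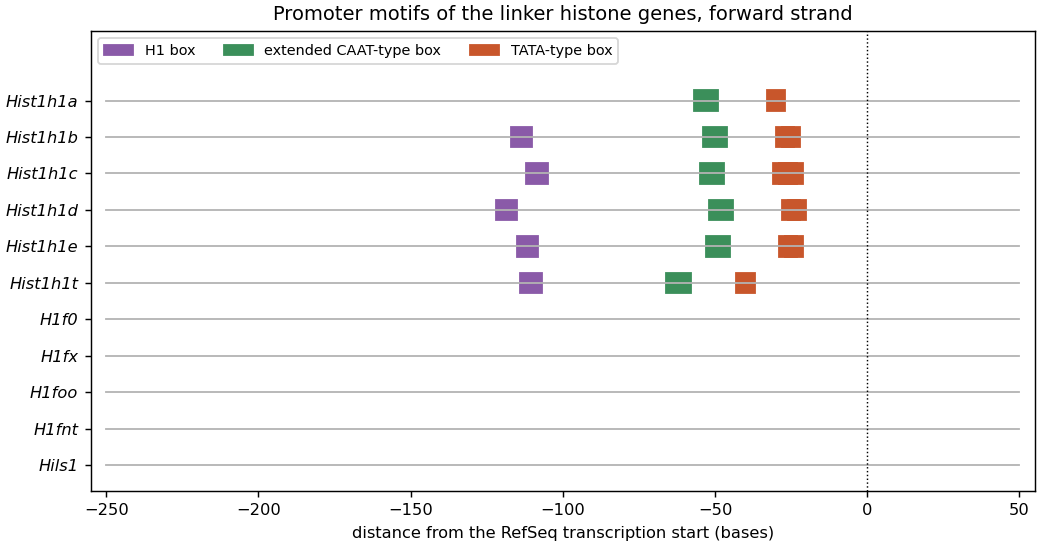
Positions of the H1 box, the ACCAATCA box and the TATANA box on the forward strand of the 300-base RefSeq windows of the 9 members and of H1fnt and Hils1 (x axis, bases from the transcription start, dotted line). The 6 cluster genes carry the CCAAT and TATA boxes near the start, 5 of them carry an H1 box between -122 and -106, and the other windows carry none of the 3 on this strand.

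No linker histone gene passed the test between genotypes. With limma (Benjamini-Hochberg adjustment over 26647 tested probes), 0 of 8 tested members were called, and adjusted p ran from 0.167 (H1fx) to 0.911 (Hist1h1t). At an unadjusted p below 0.05 there was 1 member, H1fx, higher in the knockout. Over all tested probes 0.465% were called (0.124% higher and 0.342% lower in the knockout), 21.9% had an unadjusted p below 0.05 and in 29.1% the genotypes did not overlap. Among the 8 members the genotypes did not overlap in 1 after scaling. With 8 members these counts are too small to place the family above or below those shares. The median log2 difference, knockout minus wild type, was -0.028 over the 8 members and -0.011 over all tested probes, with 4 members positive and 4 negative. The differences ran from -0.19 (Hist1h1e) to 0.52 (H1fx).

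**Figure D2:**
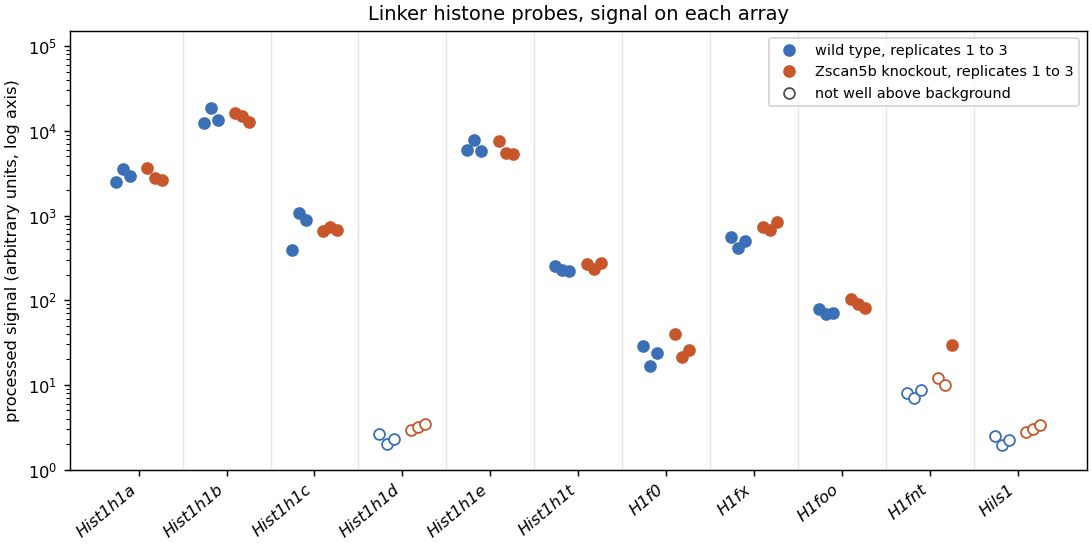
Processed signal (log axis, arbitrary units, before scaling between arrays) of each linker histone probe on the 3 wild type and 3 knockout arrays; filled points were well above background and open points were not. The genotypes overlap on this axis for every tested probe except H1fx and H1foo, whose 3 knockout points lie above their 3 wild type points. For H1foo the margin is narrow (79.9 for knockout replicate 3 against 78.4 for wild type replicate 1), and its genotypes overlapped after scaling.

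Among the whole set of arrays, 25360 to 27737 of 39429 gene probes were well above background, and the 75th percentile of signal, to which each array was scaled, lay between 852 and 1028. Wild type and knockout arrays came from separate slides and scans, so slide and genotype cannot be told apart in any comparison here, those above included. Zscan5b, measured first as a check of the labels, had a log2 difference of -1.32 ± 0.29 (SE, n = 3 per group) at its 1 probe, with a limma adjusted p of 0.107, and since the labels do not place the deletion, the probe may lie outside it. All 10 ES cell markers chosen for the check, Pou5f1, Nanog and Sox2 among them, were well above background on all 6 arrays. So were all 16 markers of feeder fibroblasts, whose mean centred log2 level was -0.54, 1.03 and 0.87 on the wild type arrays in replicate order and -0.64, -0.19 and -0.53 on the knockout arrays. No linker histone probe was saturated.

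Hist1h1b encodes H1.5, one of the S phase variants. Its probe (mm9 chromosome 13, 21871923 to 21871982) gave, in replicate order, processed signals of 12488, 18542 and 13258 for wild type and 16213, 14778 and 12862 for the knockout. After scaling, the log2 levels relative to the 75th percentile were 3.87, 4.44 and 3.83 against 3.98, 4.04 and 3.84. Wild type replicate 2 was the highest of the 6 arrays, and the other 2 wild type arrays lay within or close to the range of the knockout. The log2 difference was -0.096 ± 0.19 (SE), with a 95% interval of -0.55 to 0.36 and a limma adjusted p of 0.777. In terms of fold, these data allow a knockout level between 0.685 and 1.28 of that in wild type.

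Hist1h1e encodes H1.4, an abundant S phase variant in many cell types. Its probe (chromosome 13, 23713707 to 23713766) gave 6002, 7728 and 5849.8 for wild type and 7656, 5465 and 5308 for the knockout. Wild type replicate 2 was again the highest after scaling (3.18, against 2.82 and 2.65 in wild type replicates 1 and 3), and knockout replicate 1 (2.90) lay above knockout replicates 2 and 3 (2.60 and 2.57). The log2 difference of -0.19 ± 0.17 had a 95% interval of -0.62 to 0.23 and a limma adjusted p of 0.522. It was the lowest difference of the family, and the genotypes overlapped.

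Hist1h1a encodes H1.1, an S phase variant found in fewer tissues than the others. Its signals (chromosome 13, 23855888 to 23855947) were 2489, 3546 and 2933 for wild type and 3594, 2789 and 2657 for the knockout. The knockout values fell within the wild type range after scaling (1.81, 1.63 and 1.57 against 1.55, 2.06 and 1.65). The log2 difference was -0.084 ± 0.16, with a 95% interval of -0.48 to 0.31 and a limma adjusted p of 0.775.

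Hist1h1c encodes H1.2, which is known to give some polyadenylated mRNA besides the stem-loop form. It was the least repeatable member among the wild type arrays, with signals of 389.7, 1060.2 and 888 (chromosome 13, 23832018 to 23832077) against 656, 735 and 669 in the knockout. On the scaled log2 axis the wild type arrays stood at -1.13, 0.31 and -0.07 and the knockout arrays at -0.65, -0.29 and -0.42, so the knockout arrays all lay inside the wild type range. The highest wild type array exceeded the lowest by 2.72-fold, a wider range than in 93.9% of tested probes, whereas the knockout arrays differed by 1.28-fold. The log2 difference was -0.16 ± 0.37, with a 95% interval of -1.05 to 0.73 and a limma adjusted p of 0.813. Leaving out wild type replicate 1 moved it to -0.58, and leaving out replicate 2 turned it to 0.14. Wild type replicate 1, the lowest array for Hist1h1c, was also the wild type array with the lowest mean of feeder fibroblast markers (-0.54 against 1.03 and 0.87, with -0.64 to -0.19 on the knockout arrays). The part of feeder RNA in this spread was not tested.

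Hist1h1d encodes H1.3. Its probe (chromosome 13, 23649787 to 23649846) gave 2.65, 2.01 and 2.30 for wild type and 2.89, 3.19 and 3.46 for the knockout, not well above background on any of the 6 arrays. No fold is given for it. All 3 forward reading frames of the probe hold a stop codon, unlike those of Hist1h1b and Hist1h1e, and its signals give only an upper bound on what this probe could detect.

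Hist1h1t encodes the spermatocyte variant H1t, yet its probe was well above background on every array. Signals (chromosome 13, 23788343 to 23788402) were 253, 229 and 222 for wild type and 265, 231 and 274 for the knockout. The groups overlapped closely, with scaled log2 levels of -1.75, -1.89 and -2.07 against -1.96, -1.97 and -1.71. The log2 difference was 0.029 ± 0.13 (95% interval -0.29 to 0.35, limma adjusted p 0.911), the value closest to 0 in the family.

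H1fx, which encodes the divergent replication-independent variant H1X (H1.10), was the member in which the genotypes did not overlap after scaling. Its signals (mm9 chromosome 6, 87931037 to 87931096) were 556, 411 and 495 for wild type and 735, 666 and 834 for the knockout. After scaling they were -0.62, -1.05 and -0.91 in wild type against -0.48, -0.44 and -0.11 in the knockout, so every knockout array lay above every wild type array. The log2 difference was 0.52 ± 0.17 (SE, n = 3 per group), a 1.43-fold higher mean with a 95% interval from 1.09-fold to 1.89-fold. The unadjusted p was 0.0188 and the limma adjusted p 0.167, which missed the threshold of 0.05. Its log2 difference was higher than that of 91.1% of tested probes and stayed positive in all 15 alternatives run (0.38 to 0.64, adjusted p 0.116 to 0.428). Among all tested probes 13.7% had every knockout array above every wild type array.

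H1f0 and H1foo, which also lie outside the cluster, had positive differences that the spread between arrays covered. H1f0, encoding H1.0, was dim (chromosome 15, 78859930 to 78859989), with signals of 28.9, 16.7 and 23.6 for wild type and 39.4, 21.4 and 26.0 for the knockout. Its log2 difference was 0.22 ± 0.26, with a 95% interval of -0.41 to 0.84 and a limma adjusted p of 0.631, and the arrays within each genotype differed by 1.73-fold and 1.61-fold. The difference of H1f0 was 0.071 with normexp background correction, 0.42 without wild type replicate 1, 0.024 without wild type replicate 2, 0.035 without knockout replicate 1 and 0.38 without knockout replicate 2. H1foo, the oocyte variant (chromosome 6, 115900157 to 115900216), gave 78.4, 68.1 and 71.3 for wild type and 103, 89.3 and 79.9 for the knockout. Its log2 difference was 0.22 ± 0.12, with a 95% interval of -0.064 to 0.50 and a limma adjusted p of 0.312. On the scaled axis knockout replicate 3 (-3.49) lay below wild type replicate 1 (-3.44), so the genotypes overlapped by that pair of arrays, and with normexp its difference was 0.082.

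Of the linker histones of male germ cells that are not members, Hils1, the spermatid variant, read 1.95 to 3.35 and was not well above background on any array. H1fnt, another testis variant (chromosome 15, 98086469 to 98086528), gave 8.06, 6.98 and 8.74 for wild type and 11.9, 9.85 and 29.4 for the knockout. Its signal was well above background on knockout replicate 3 alone, and it was not tested. The germ cell genes Ddx4, Dazl, Sycp3 and Zp3, measured as markers beside Hist1h1t and H1foo, were all well above background on the 6 arrays, and none was called by limma (log2 differences of 0.035, 0.0094 and -0.88 for Ddx4, Dazl and Zp3, and 0.37 and 0.32 at the 2 Sycp3 probes).

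**Figure D3:**
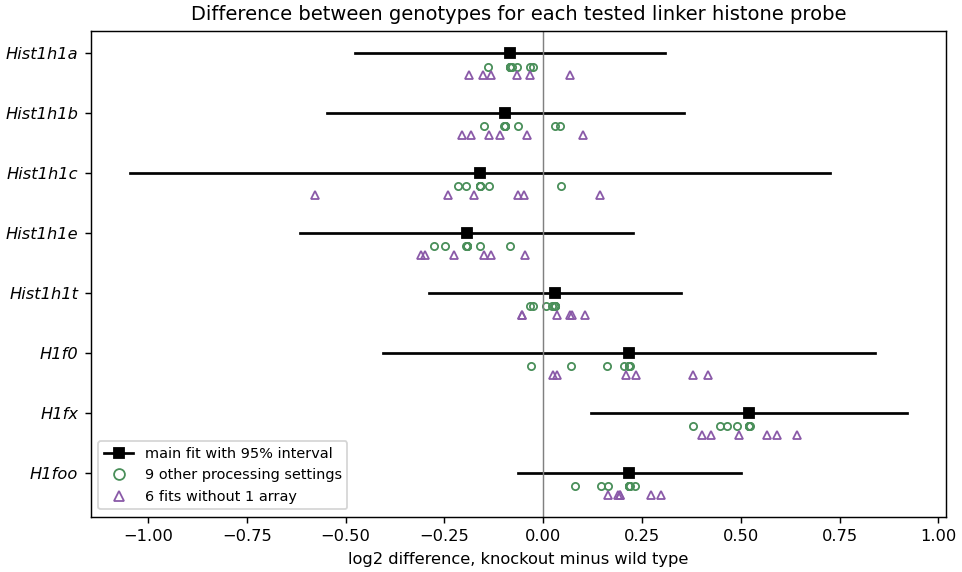
Fitted log2 difference (x axis, knockout minus wild type) of the 8 tested members with its 95% interval (black), the same value under 9 other processing settings (circles) and with 1 array left out (triangles). The interval of H1fx (0.12 to 0.92) lies above 0 before adjustment for multiple testing, and every other interval includes 0.

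Several members stood apart in 1 wild type array. In wild type replicate 2, Hist1h1a, Hist1h1b, Hist1h1c and Hist1h1e were each at their highest of the 6 arrays, by 0.35, 0.44, 0.69 and 0.39 log2 units above their means over all arrays. In the same array H1f0 and H1fx were at their lowest, 0.49 and 0.45 below their means. Hist1h1t and H1foo were at neither extreme there. Of the 41 tested replication-dependent core histone genes, 17 were also highest in wild type replicate 2 and 13 in wild type replicate 1. Over all tested probes the median log2 range was 0.41 among wild type arrays and 0.24 among knockout arrays. The share of all tested probes at their highest or lowest in wild type replicate 2 is not given here. These counts are therefore not set against a background and may not be particular to the family. Between the other 5 arrays Hist1h1a, Hist1h1b and Hist1h1e stayed within -0.22 to 0.11 of their means. Wild type replicate 2 therefore set the sign of several small differences: without it the log2 difference became 0.068 for Hist1h1a, 0.10 for Hist1h1b and 0.14 for Hist1h1c. The differences of Hist1h1e and H1f0 kept their sign and moved to -0.045 and 0.024. That of H1fx was 0.42. The mean of the feeder fibroblast markers was also highest in this array (1.03, with 0.87 in wild type replicate 3), and their part in the pattern was not tested. The 15 tested genes of S phase and proliferation, such as Pcna and the Mcm helicase subunits, had a mean centred log2 level of 0.0028 there, against 0.15 in wild type replicate 1 and -0.10 to 0.0061 on the remaining arrays. Of these 15 genes, 2 were highest in wild type replicate 2 and 9 in wild type replicate 1.

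**Figure D4:**
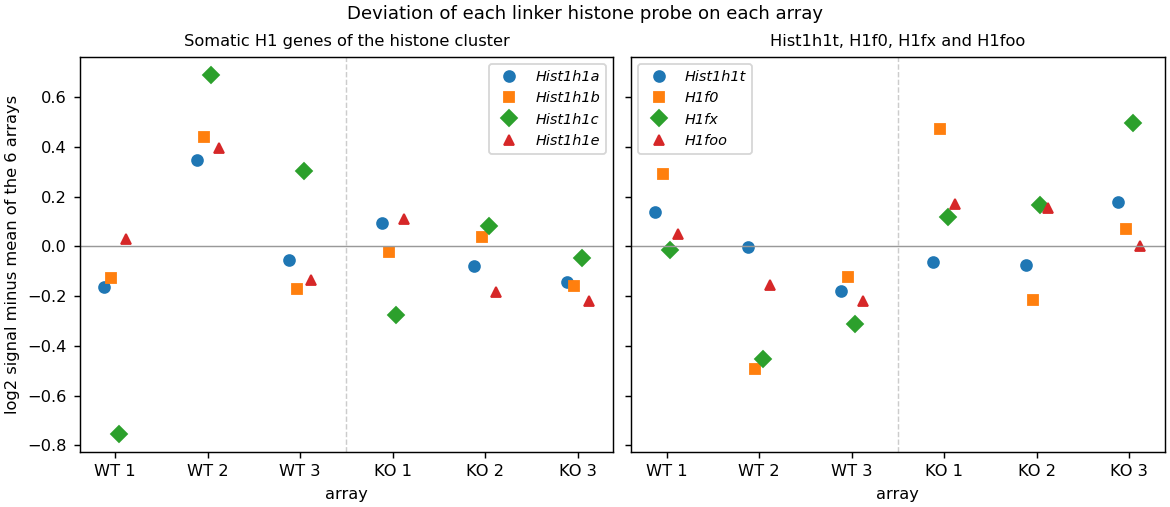
Deviation of each tested member from its own mean over the 6 arrays (y axis, log2 units), by array (x axis). In wild type replicate 2 the 4 somatic cluster genes are all high (0.35 to 0.69) while H1f0 and H1fx are low (-0.49 and -0.45), and Hist1h1c spans -0.75 to 0.69 among the wild type arrays.

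The mean profile of the 4 tested somatic cluster genes was compared with every other named probe across the 6 arrays. The closest genes were Blvra, encoding biliverdin reductase A (Pearson r = 0.996), Ocrl, a phosphoinositide phosphatase (0.995), and Rbms3, an RNA-binding protein (0.992). The scaled log2 level of Rbms3 was -3.06 in wild type replicate 2 and between -6.95 and -5.85 on the other arrays, so its r rests mostly on 1 array. For H1f0 the closest genes were Gm6653 (0.992), Tbc1d17, a member of a Rab GTPase-activating family (0.991), and Dclre1b, the Apollo nuclease of telomeres and crosslink repair (0.984). These are descriptions over 6 arrays picked from 25170 probes, of which 106 and 38 had r above 0.95, and the probes of an array share its labelling and scan. None of the 6 genes was called between genotypes, with limma adjusted p from 0.480 to 0.823.

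Along the histone cluster on chromosome 13, the H1 probes spanned 1984 kb, interleaved with core histone probes that spanned 2212 kb. None of the 5 tested H1 probes or of the 32 tested core histone probes was called by limma. The core histone probes had a median log2 difference of -0.14 and ran from -0.95 to 1.52, and in 13 of them the genotypes did not overlap (10 lower and 3 higher in the knockout, where 15.4% and 13.7% of all tested probes were). All 5 H1 probes overlapped, and this contrast was not tested. Nearest to Hist1h1a lay Hist1h3a, 2.13 kb away, at -0.95 ± 0.16 (adjusted p 0.0712), while Hist1h1a itself stood at -0.084. Hist1h3i, 2.86 kb from Hist1h1b, was at -0.75 ± 0.12 (0.065), and Hist1h4c, 1.88 kb from Hist1h1t, at -0.39 ± 0.15 (0.221). On its other side Hist1h1t had Hist1h2bc, 4.09 kb away, at -0.70 ± 0.21 (0.159). In Hist1h3a, Hist1h3i, Hist1h4c and Hist1h2bc every knockout array lay below every wild type array. Hist1h3c, 5.31 kb from Hist1h1c, was at -0.15 ± 0.12 (0.445). The probes beside Hist1h1e were farther off: Hist1h2be, 38.1 kb away, was at 0.022 ± 0.17 (0.949), and Hist1h2ac, 59.6 kb away, at 1.52 ± 0.52 (0.183), with no overlap between genotypes. Hist1h2ac, which set the upper end of the core histone range, was dim. Its signals were 31.0, 26.4 and 9.28 for wild type and 50.9, 54.4 and 79.7 for the knockout, and wild type replicate 3 was not well above background. On its other side Hist1h1b had Hist1h2ak, 26.3 kb away, at -0.060 ± 0.13 (0.798). The differences of the H1 genes from these neighbours were not tested. Core histone copies are nearly identical in sequence, and 1 probe may not tell them apart.

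**Figure D5:**
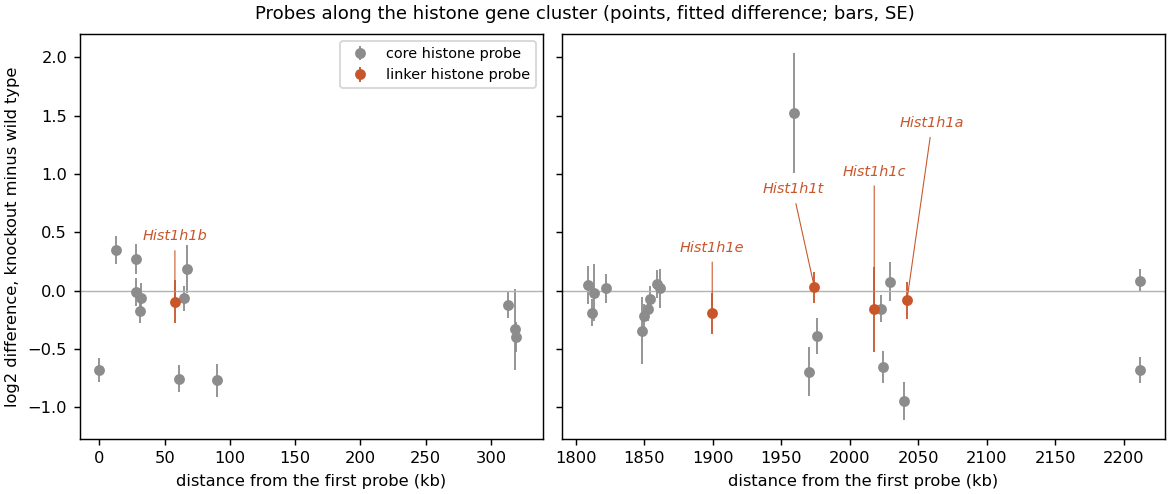
Fitted log2 difference (y axis, knockout minus wild type, bars are SE) of each tested histone probe against its distance from the first probe of the cluster (x axis, kb, with the empty stretch left out between panels). The 5 linker histone probes lie between -0.19 and 0.03, and the core histone probes between -0.95 and 1.52. The highest, Hist1h2ac, is a dim probe that was not well above background in wild type replicate 3.

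Over all replication-dependent core histone genes of the array, 41 of 43 were tested at their brightest probe, 13 with a positive and 28 with a negative difference. The median was -0.16, against -0.011 over all tested probes. None was called by limma. An unadjusted p below 0.05 was reached by 12 lower and 3 higher genes, against 11.3% and 10.6% of all tested probes. The members with the smallest p were Hist1h2bm (-0.68 ± 0.10, adjusted p 0.0613), Hist1h3i (-0.75 ± 0.12), Hist1h2ba (-0.68 ± 0.11), the H2B gene of testis, and Hist1h3a (-0.95 ± 0.16). Over all 41 tested core histone genes, the mean centred log2 level was 0.14, 0.16 and -0.0017 on the wild type arrays in replicate order, and -0.085, -0.073 and -0.14 on the knockout arrays.

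Genes that make and process histone mRNA gave no call. Of 20 genes, 19 were tested, 8 positive and 11 negative, with a median log2 difference of -0.022. An unadjusted p below 0.05 was reached by 1 gene on each side, where 11.3% (lower) and 10.6% (higher) of all tested probes had one. Lsm10, a subunit of the U7 snRNP that cuts the histone pre-mRNA, was at -0.29 ± 0.095 (limma adjusted p 0.174). Gon4l, a nuclear regulator of transcription, was at 0.27 ± 0.11 (0.224). Cpsf2, a subunit of the cleavage complex, was at -0.22 ± 0.094 (0.237), and Casp8ap2, which encodes the histone locus body protein FLASH, at -0.25 ± 0.12 (0.270).

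Chaperones of H1 and proteins that compete with it for the nucleosome had mostly negative differences, again without a call. All 15 genes were tested, 4 positive and 11 negative, with a median of -0.25, and limma gave an unadjusted p below 0.05 to 6 lower genes and 1 higher gene, where 11.3% and 10.6% of all tested probes had one. Set, a histone chaperone, was at -0.45 ± 0.11 (adjusted p 0.121), Nap1l1, another, at -0.50 ± 0.15 (0.154), and Hmga1 and Hmgb1, which bend DNA and compete with H1, at -0.33 ± 0.093 (0.147) and -0.33 ± 0.10 (0.166). The direction depended on the probe for Hmga1, whose other 2 probes stood at 0.051 ± 0.091 and 0.47 ± 0.16. Set and Nap1l1 each had 1 of 3 probes on the other side of 0 (0.030 ± 0.089 and 0.10 ± 0.22), whereas all 8 Hmgb1 probes were negative. Hmga2 had the lowest value of the list, -1.17 ± 0.43 (0.203), and Nap1l4 the highest, 0.31 ± 0.12 (0.201). The S phase and proliferation genes had a median of -0.11 with 0 of 15 called, and 2 lower genes (0 higher) had an unadjusted p below 0.05. Tyms, thymidylate synthase, was at -0.31 ± 0.11 (0.196), Ccne1, cyclin E1, at -0.52 ± 0.21 (0.222) with a second probe at 0.045 ± 0.30, Mki67, the proliferation marker Ki-67, at 0.26 ± 0.13 (0.279) and Mcm7, a helicase subunit, at -0.19 ± 0.098 (0.296). Feeder fibroblast markers, read beside these lists, had a median of -0.89 with 1 of 16 positive, 15 negative and none called (5 lower at an unadjusted p below 0.05), and their part in the lower values was not tested.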

How the data were processed

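Per the file headers, Agilent Feature Extraction 10.7.3.1 gave the deposited spot intensity on a linear scale, with background subtracted by a spatial detrend and weak spots set to a surrogate. Version 10.3.1.1 appears in the submitters' processing notes. The authors' deposited value matrix, an alternative here, holds log2 values that are centred per probe, as the values show, and no source used here gives the scaling of its columns.

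Control and outlier spots were dropped, log2 processed signals were averaged per probe, and arrays were scaled by subtracting their own 75th percentile. Probes well above background on at least 3 of 6 arrays (26647, 67.6%) were compared in limma 3.58.1 (lmFit and eBayes, R 4.3.3, with files read by data.table, version 1.17.8), two-sided, with Benjamini-Hochberg adjustment at 0.05 and no replicate block. The pipeline was tested on simulated data. Genes of a list were represented by their tested probe with the highest mean. Named genes were all members, up to 4 genes per list with the smallest p, list extremes chosen after their values were seen, and the 3 genes most like each profile. Members and lists were chosen with earlier results of these data known. Probe positions are on mm9, and promoters (RefSeq, GRCm38.p6) were searched in Python 3.11.15. Only 3 arrays per group limit the precision, and an exact permutation test could not go below p = 0.1.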

Additional observations from a re-analysis of the deposited data

How the results depend on the processing

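No linker histone probe was called under any of the 15 alternatives run on the fit, with 0 to 3 at an unadjusted p below 0.05 (3 without wild type replicate 1). Many of these alternatives, given below, called 0 probes on the whole array, so in them the lack of a call for the family was fixed. The median log2 difference of the 8 members stayed within the spread between arrays, from -0.083 (arrays centred on their median) to 0.085 (without wild type replicate 2). The median over all tested probes was -0.066 in the first of these fits, with 3 of 8 members positive. In the second it was -0.0034, with 7 of 8 members positive. With 1 probe per gene the mean over a gene's probes changes nothing. Of 120 values of single members, 109 kept their direction and 11 reversed. With array weights H1f0 was -0.030, Hist1h1b 0.042 and Hist1h1c 0.044. Under quantile normalization Hist1h1b was 0.031 and Hist1h1t -0.034, and with arrays centred on their median Hist1h1t was -0.026. Leaving out 1 array at a time, Hist1h1a ran from -0.19 to 0.068, Hist1h1b from -0.21 to 0.10, Hist1h1c from -0.58 to 0.14 and Hist1h1t from -0.054 to 0.10. The cause was not tested.

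The count over all tested probes was far less stable. It was 124 in limma, 120 with the authors' value matrix and 181 under quantile normalization. It was 231 with arrays centred on their median and 840 with array weights. It was 0 with normexp, with no filter on detection, with a stricter filter (all 6 arrays) or with a trended, robust prior. Leaving out 1 array at a time gave 640 without wild type replicate 1, 2557 without wild type replicate 2 and 0 in every other case. At an unadjusted p below 0.05 these fits found 3229 to 8830 probes. The replicate block gave 0 calls (5152 at an unadjusted p below 0.05). The deviations of same-numbered arrays correlated at 0.16, 0.23 and -0.14, which does not meet the bar set for pairing (every correlation above 0.1), and the arrays were not treated as pairs. With the block the SE of H1f0 went from 0.26 to 0.11 and its adjusted p from 0.631 to 0.320. Normexp moved H1f0 to 0.071, H1foo to 0.082 and H1fx to 0.38. Hist1h1d was not well above background on any array.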
